A study of Mus musculus with 16 samples.

Results

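The Iroquois homeobox family of the mouse has 6 members, Irx1, Irx2, Irx3, Irx4, Irx5 and Irx6, which encode transcription factors with a homeodomain of the TALE class. They were matched by Ensembl identifier among the 54838 identifiers of the count tables, and all 6 were found and all 6 passed the filter on low counts that left 21284 genes for testing. The genes lie in a pair of clusters, with Irx1, Irx2 and Irx4 on mouse chromosome 13 (the IrxA cluster) and Irx3, Irx5 and Irx6 on mouse chromosome 8 (the IrxB cluster). Iroquois factors bind DNA and mostly repress their targets, and neighbouring members of a cluster are often expressed in overlapping domains. In the embryo they help to divide the neural tube into territories along its dorsal-ventral and head-to-tail axes, and they act in the limb bud, the heart and the retina. In the ventral spinal cord Irx3 is kept dorsal to the Hedgehog source at the floor plate, and in the chick it is known to exclude Olig2 from the progenitors above the motor neuron domain.

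Poly-A RNA was sequenced from Fuz KO, Gpr161 KO, Fuz;Gpr161 DKO (written DKO) and WT mouse embryos at E10.5, each as a Head part from above the third branchial arches and a Tail part from below the forelimbs. Each of the 8 groups of region and genotype held n = 2 libraries, 16 libraries in all, and the design compares the genotypes within each region. Fuz encodes a planar cell polarity effector needed to build cilia, and Gpr161 a receptor in the primary cilium that restrains Hedgehog signalling. The labels give no strain, allele, sex or treatment beyond these names. Nothing in them ties either library of a group to an embryo of its own, so a p-value here reflects the spread among these samples and no more.

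Total counts ran from 39062489 to 53680317 per library. The targeted genes fitted the labels, with Fuz at 0.808 to 1.89 CPM (the count over the TMM-adjusted library total, on the usual CPM scale) in the 8 Fuz KO and DKO libraries against 4.95 to 9.22 CPM in the other 8, and Gpr161 at 2.12 to 5.44 CPM in the 8 Gpr161 KO and DKO libraries against 24.3 to 55.0 CPM in the other 8. The regions also fitted: the summed level of 8 tail markers (Hox9 and Hox10 genes, Cdx2 and T) was 0.471 to 1.76 CPM in Head and 327 to 602 CPM in Tail. By Xist and Y-linked transcripts, the WT libraries were female and the Fuz KO and DKO libraries male, while Gpr161 KO held a male (replicate 1) and a female (replicate 2) in each region. Fuz KO or DKO against WT therefore also sets males against females. A sex term in a fit can rest only on Gpr161 KO replicate 1 against replicate 2. It cannot separate sex from other differences between those replicates. The 12 hypoxia and glycolysis markers stood apart in the replicate 1 mutants. Their summed level in Head was 10513 and 3110 CPM in Fuz KO, 5875 and 3749 CPM in Gpr161 KO, 8301 and 4101 CPM in DKO, and 2658 and 2603 CPM in WT. In Tail it was 9661 and 3204 CPM in Fuz KO, 5881 and 3628 CPM in Gpr161 KO, 7876 and 4120 CPM in DKO, and 2900 and 3084 CPM in WT. Each embryo part holds many cell types, so fewer cells of a type and less RNA per cell cannot be told apart.

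The members are alike in sequence, which bears on how reads could be shared between them. The stretch below is a window of 60 coding bases in which the 6 members are alike, taken from the GENCODE M21 transcripts. It falls in the homeodomain. Whether another window is more alike in its bases is not shown. Capitals mark the bases at which the members differ, and the other 53 bases are the same in all 6.
Irx1: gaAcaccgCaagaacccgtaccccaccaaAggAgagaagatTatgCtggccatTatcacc
Irx2: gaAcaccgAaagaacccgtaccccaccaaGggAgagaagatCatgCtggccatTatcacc
Irx3: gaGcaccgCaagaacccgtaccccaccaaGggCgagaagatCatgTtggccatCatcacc
Irx4: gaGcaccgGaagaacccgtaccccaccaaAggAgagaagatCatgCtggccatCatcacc
Irx5: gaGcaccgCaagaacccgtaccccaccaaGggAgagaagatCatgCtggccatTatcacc
Irx6: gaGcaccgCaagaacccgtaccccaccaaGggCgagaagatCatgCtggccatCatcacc

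All 20 residues that this window encodes are the same in the 6 members, and pairs of members share from 90% of the bases (Irx1 and Irx3) to 98.3% (Irx3 and Irx6). Over whole transcripts, the longest exact run shared by any pair was 88 bases, between Irx3 and Irx6, followed by 65 bases between Irx2 and Irx5 and 50 bases between Irx3 and Irx5; the other 12 pairs shared runs of 23 to 41 bases. The sources used here do not give the read length or how reads with more than 1 match were handled. Irx6 had 0 counts in both Tail Gpr161 KO libraries, in which Irx3 had 1392 and 805 counts.

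Set per kilobase of exon in WT, Irx3 was the most abundant member, at 26.0 CPM per kb in Head and 29.9 CPM per kb in Tail. Irx5 was at 8.97 CPM per kb in Head WT and 8.85 CPM per kb in Tail WT. Irx1 and Irx2 were at 10.0 and 10.8 CPM per kb in Head WT, and at 2.78 and 3.25 CPM per kb in Tail WT. Irx4 (1.75 CPM per kb in Head WT, 1.66 CPM per kb in Tail WT) and Irx6 (0.288 CPM per kb in Head WT, 0.238 CPM per kb in Tail WT) were the least abundant. All levels below are CPM, compared within a gene.

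**Figure D1:**
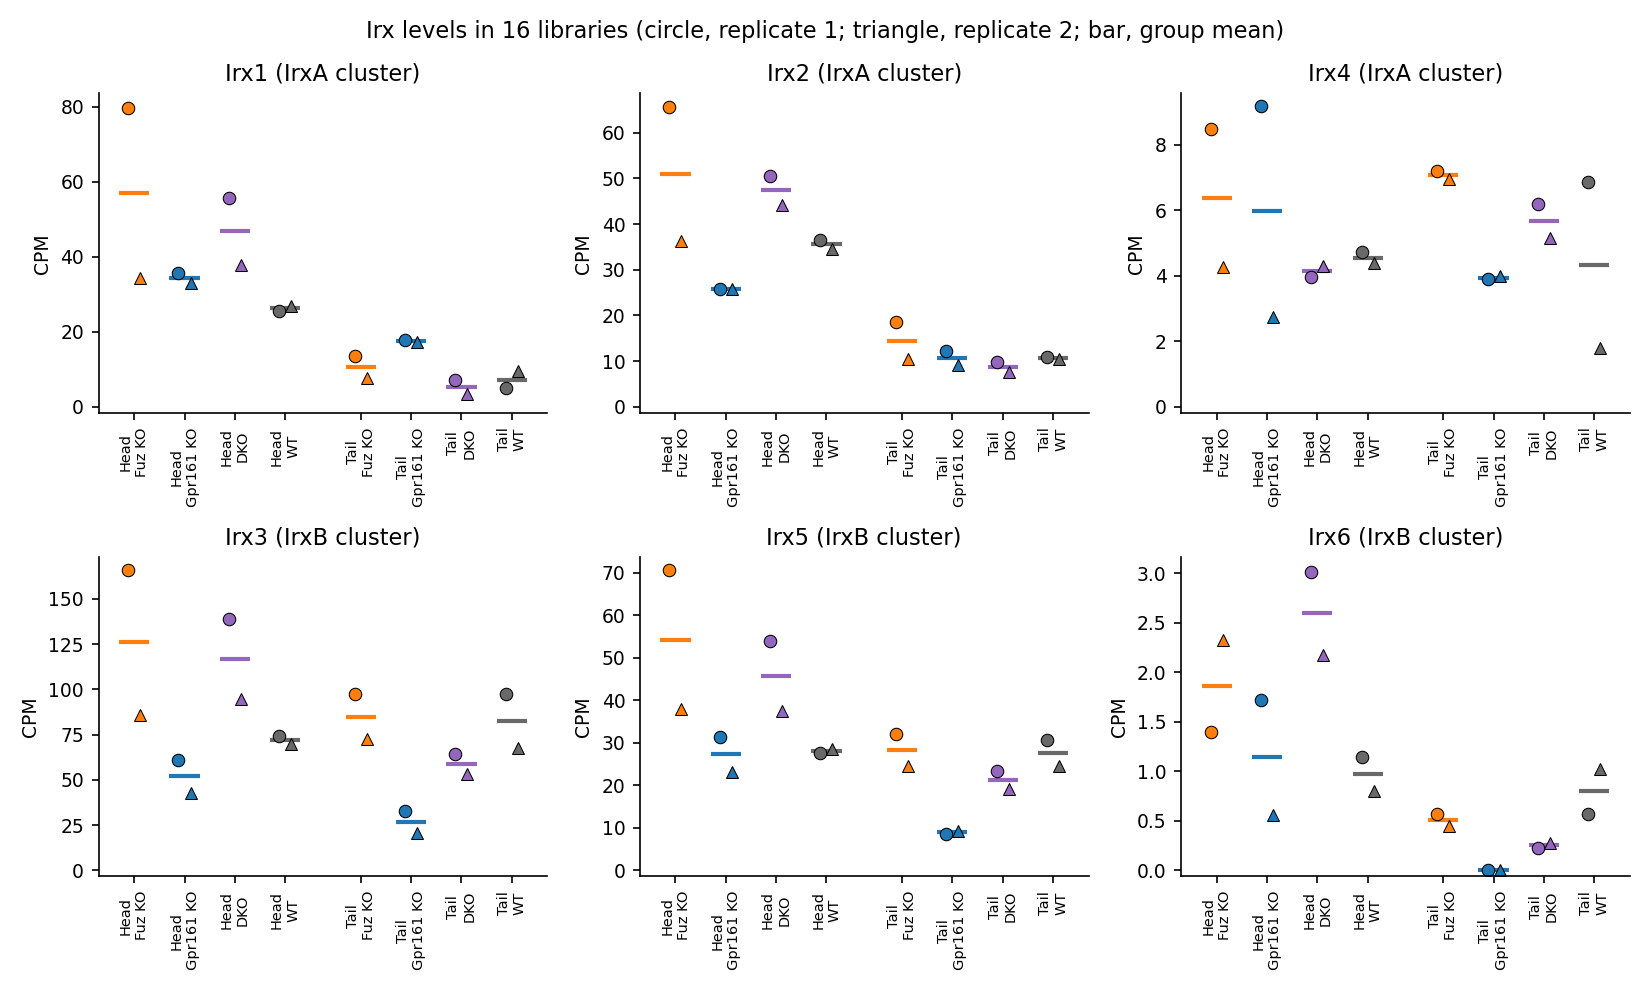
CPM of each Irx gene in the 16 libraries, by region and genotype, with circles for replicate 1, triangles for replicate 2 and bars for group means. Irx3, Irx5 and Irx6 are lowest in Tail Gpr161 KO, and Irx1 and Irx2 are lower in Tail than in Head in every genotype.

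Among the comparisons of a mutant with WT, members of the family were called only in the Tail of Gpr161 KO embryos, and these belonged to the IrxB cluster. Irx5 and Irx6 fell there, with Irx5 3.07-fold lower and Irx6 at 0 counts. Irx3, their neighbour and the most abundant member, had a fold change as large as that of Irx5 but did not pass the test. Of the IrxA members, 0 of 3 passed the test, and Irx1 was higher in both Tail Gpr161 KO libraries than in either Tail WT library.

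Irx5, which acts with Irx3 in the early limb bud and is known for its part in heart and retina, had 8.67 and 9.32 CPM in the Tail Gpr161 KO libraries, against 30.7 and 24.6 CPM in Tail WT. The groups did not overlap, and the Tail Gpr161 KO libraries were the lowest of all 16 for this gene. Groups of 2 often fail to overlap without a difference, and the share of all genes that do so was not computed. Overlap is therefore given as description only, here and below. The log2 fold change was -1.62 ± 0.28 (SE, n = 2 each), with an edgeR adjusted p of 0.0311. Irx6, the IrxB member next to Irx5 and one known for its part in retinal bipolar cells, had 0 counts in both Tail Gpr161 KO libraries, against 0.574 and 1.03 CPM in Tail WT. A floor of 3 counts over the group, which is 0.0371 CPM, was 21.8-fold below the pooled level of Tail WT, from 69 counts (edgeR adjusted p = 0.0156). This bound covers counting error only in the group at 0 counts, and the other group is taken as measured, here and below. Irx3 had 33.0 and 20.8 CPM in Tail Gpr161 KO, against 97.3 and 67.6 CPM in Tail WT, and its groups did not overlap either. Its log2 fold change was -1.62 ± 0.35 (SE, n = 2 each) with an edgeR adjusted p of 0.116, while DESeq2 gave an adjusted p of 2.40e-04.

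The IrxA members in the Tail of Gpr161 KO differed less from WT. Irx1, known from lung, limb and heart and from the midbrain and hindbrain, had 18.0 and 17.2 CPM in Tail Gpr161 KO, against 5.07 and 9.51 CPM in Tail WT. Both mutant libraries were above both WT libraries, with a log2 fold change of 1.27 ± 0.45 (SE) that missed the threshold (edgeR adjusted p = 0.504). Irx2, which overlaps widely with Irx1 in its domains, had 12.2 and 9.22 CPM in Tail Gpr161 KO, against 10.9 and 10.4 CPM in Tail WT, and the groups overlapped. Irx4, a marker of ventricular heart muscle, had 3.89 and 4.00 CPM in Tail Gpr161 KO and lay between the Tail WT libraries at 6.87 and 1.78 CPM.

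Of the 6 members, 2 were thus called lower and 0 higher in Tail Gpr161 KO against Tail WT, where 0.305% of the 21284 genes tested were called in either direction and 0.226% lower. The median log2 fold change of the 6 members was -0.87, also with Irx6 at its bound, and 0.00 over all genes tested. The calls rest on few libraries. Irx5 kept a log2 fold change of -1.44 to -1.77 with each library left out but missed the threshold without Tail Gpr161 KO 1 (edgeR adjusted p = 0.380), Tail Gpr161 KO 2 (0.217), Tail WT 1 (0.171), Tail WT 2 (0.0803), Head WT 1 (0.0545) or Head WT 2 (0.0557). Irx6 missed it without Tail Gpr161 KO 1 (edgeR adjusted p = 0.158), Tail Gpr161 KO 2 (0.126) or Tail WT 2 (0.0645), and with the Tail fitted alone (0.0680). With sex as a term, which rests on the Gpr161 KO replicates alone, Irx5 had a log2 fold change of -1.70 and an edgeR adjusted p of 0.0978.

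Neuron markers differed between Tail libraries too, and the summed level of 8 was 132 and 159 CPM in Tail Gpr161 KO and 130 and 539 CPM in Tail WT, with 0 of 8 called. The 7 neural progenitor markers summed to 425 and 465 CPM in Tail Gpr161 KO and 392 and 642 CPM in Tail WT, with 0 of 7 called. Their part in the Irx values, and that of the hypoxia markers given above, was not tested.

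**Figure D2:**
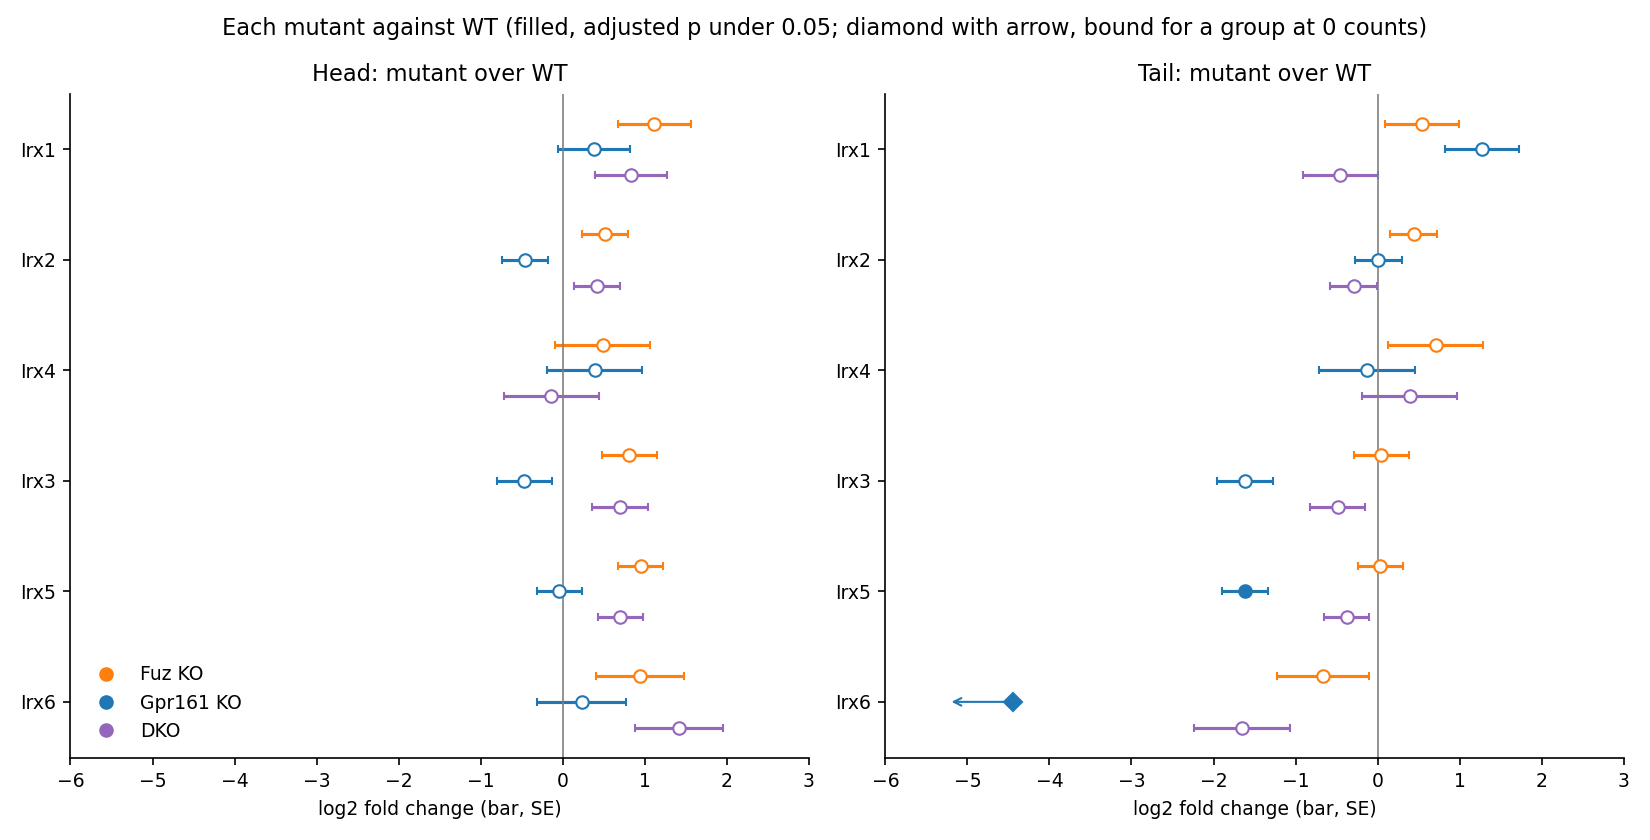
Log2 fold change (points, with SE bars) of each Irx gene in Fuz KO, Gpr161 KO and DKO over WT, in Head and in Tail; filled points passed an adjusted p of 0.05. Only Irx5 and Irx6 in Tail Gpr161 KO are filled, and Irx6 is drawn there as a bound with an arrow because Tail Gpr161 KO had 0 counts.

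In Tail Fuz KO and Tail DKO, no member was called against Tail WT, and every library had more Irx3, Irx5 and Irx6 than the Tail Gpr161 KO libraries. In Tail Fuz KO, Irx3 had 97.3 and 72.6 CPM against 97.3 and 67.6 CPM in Tail WT, and Irx5 had 32.1 and 24.5 CPM against 30.7 and 24.6 CPM in Tail WT. The values of both genes overlapped those of Tail WT. Irx6 had 0.567 and 0.444 CPM in Tail Fuz KO, just under the 0.574 and 1.03 CPM of Tail WT. Irx1 had 13.6 and 7.61 CPM in Tail Fuz KO against 5.07 and 9.51 CPM in Tail WT, and Irx2 had 18.5 and 10.4 CPM against 10.9 and 10.4 CPM in Tail WT. Irx4 had 7.20 and 6.94 CPM in Tail Fuz KO, just above the 6.87 and 1.78 CPM of Tail WT, while Irx1 and Irx2 overlapped with it. In Tail Fuz KO against Tail WT, edgeR called 0.0094% of all genes, and DESeq2 called 0 members. At an unadjusted edgeR p under 0.05 there were 0 members and 1109 of the 21284 genes.

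In Tail DKO, Irx3 had 64.3 and 53.2 CPM and Irx5 23.5 and 19.1 CPM, both groups under the Tail WT libraries and above the Tail Gpr161 KO libraries. Irx6 had 0.231 and 0.274 CPM in Tail DKO, from 24 counts in all, which was also under Tail WT. The log2 fold change of Irx6 in Tail DKO against Tail WT was -1.65 ± 0.59 (SE; edgeR adjusted p = 0.571). In this comparison edgeR called 0 members and 0.0423% of all genes, and DESeq2 called 0 members. An unadjusted edgeR p under 0.05 was reached by 1 member and by 1530 of the 21284 genes. Irx1 had 7.11 and 3.56 CPM in Tail DKO against 5.07 and 9.51 CPM in Tail WT, Irx2 had 9.86 and 7.56 CPM against 10.9 and 10.4 CPM in Tail WT, and Irx4 had 6.19 and 5.15 CPM. The Irx2 libraries of Tail DKO lay just below those of Tail WT, and those of Irx1 and Irx4 overlapped with Tail WT.

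Mutants were then compared with each other in the Tail. Tail Fuz KO and Tail Gpr161 KO differed in 2 of the 6 members, Irx5 and Irx6, both higher in Fuz KO, where 0.395% of all genes were called and 0.169% higher. Irx5 differed by a log2 fold change of 1.65 ± 0.28 (SE, edgeR adjusted p = 0.0223). Irx6 in Tail Fuz KO, from 40 counts, was 13.6-fold above the floor of Tail Gpr161 KO (edgeR adjusted p = 0.0206). Irx3 had a log2 fold change of 1.66 ± 0.35 (SE; edgeR adjusted p = 0.0876), and DESeq2 called it too (adjusted p = 1.08e-04). The Irx5 call was lost without Tail Gpr161 KO 1 (0.243), Tail Gpr161 KO 2 (0.178) or Tail Fuz KO 1 (0.102), or with sex as a term (0.119). The Irx6 call was lost without Tail Gpr161 KO 1 (0.207), Tail Gpr161 KO 2 (0.169) or the Fuz KO 1 and DKO 1 libraries of both regions (0.0624), or with the Tail fitted alone (0.0766).

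Between Tail DKO and Tail Gpr161 KO, edgeR called 0 members and 0.522% of all genes, while DESeq2 called Irx1, Irx3, Irx5 and Irx6. With edgeR, 4 members and 2597 of the 21284 genes had an unadjusted p under 0.05. The log2 fold changes in DKO over Gpr161 KO were 1.24 ± 0.28 for Irx5 (SE; edgeR adjusted p = 0.0769), 1.13 ± 0.34 for Irx3 (0.190) and -1.73 ± 0.46 for Irx1 (0.135). Irx6 in Tail DKO, from 24 counts, was 6.86-fold above the floor of Tail Gpr161 KO (edgeR adjusted p = 0.0557). For each of these 4 genes, both Tail DKO libraries lay on one side of both Tail Gpr161 KO libraries. The genes were picked by their p-values in the same libraries, so this adds no support. Tail DKO against Tail Fuz KO gave 0 called members by edgeR, which called 0.0329% of all genes, and 0 by DESeq2. There, 1 member and 786 of the 21284 genes had an unadjusted edgeR p under 0.05.

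For every gene, the log2 effect in DKO was also tested against the effects of Fuz KO and Gpr161 KO added together. In the Tail, edgeR called 0 members and 0.0423% of all genes, and DESeq2 called Irx1 and Irx6. An unadjusted edgeR p under 0.05 was found for 4 members and 1329 of the 21284 genes. The departures were -2.26 ± 0.64 for Irx1, 1.08 ± 0.48 for Irx3 and 1.21 ± 0.39 for Irx5 on the log2 scale (SE; edgeR adjusted p = 0.537, 0.791 and 0.625 in that order). In the Head edgeR called 0 members (0 by DESeq2), with 0.164% of all genes called. There, 0 members and 1707 of the 21284 genes had an unadjusted edgeR p under 0.05.

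In the Head, no mutant had a called Irx member against WT, although most members had higher values in Fuz KO and DKO than in WT. EdgeR called 0.047% of all genes in Head Fuz KO against Head WT, 2.02% in Head Gpr161 KO and 0.0329% in Head DKO. An unadjusted edgeR p under 0.05 was reached by 3 members and 1739 of the 21284 genes in Head Fuz KO. The same level was reached by 0 members and 2747 genes in Head Gpr161 KO, and by 2 members and 922 genes in Head DKO. DESeq2 called 0 members in each.

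Irx1 had 79.7 and 34.3 CPM in Head Fuz KO, 35.6 and 33.0 CPM in Head Gpr161 KO, 55.8 and 37.7 CPM in Head DKO, and 25.7 and 26.9 CPM in Head WT. All 6 mutant libraries were above both WT libraries, and Head Fuz KO 1 was the highest. Its log2 fold change in Head Fuz KO over Head WT was 1.12 ± 0.44 (SE; edgeR adjusted p = 0.600), and 0.39 without Head Fuz KO 1.

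Irx2 had 65.7 and 36.3 CPM in Head Fuz KO, 25.9 and 25.8 CPM in Head Gpr161 KO, 50.5 and 44.2 CPM in Head DKO, and 36.5 and 34.6 CPM in Head WT. Both Head Gpr161 KO libraries were below and both Head DKO libraries above the Head WT libraries, while Head Fuz KO overlapped with WT. Neither difference passed the test.

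Irx3 had 166 and 86.1 CPM in Head Fuz KO, 61.0 and 42.9 CPM in Head Gpr161 KO, 139 and 94.4 CPM in Head DKO, and 74.0 and 69.6 CPM in Head WT. The libraries of Head Fuz KO and Head DKO were all above WT and those of Head Gpr161 KO all below it. The log2 fold change of Head Fuz KO over Head WT was 0.81 ± 0.34 (SE; edgeR adjusted p = 0.600). Irx5 had 70.6 and 37.9 CPM in Head Fuz KO, 31.4 and 23.2 CPM in Head Gpr161 KO, 53.9 and 37.4 CPM in Head DKO, and 27.5 and 28.6 CPM in Head WT. Its order followed that of Irx3, except that Head Gpr161 KO overlapped with Head WT. The log2 fold change of Irx5 over Head WT was 0.95 ± 0.27 in Head Fuz KO (SE; edgeR adjusted p = 0.600) and 0.70 ± 0.27 in Head DKO (0.957). Without Head Fuz KO 1, that in Head Fuz KO was 0.27 for Irx3 and 0.44 for Irx5, and without Head Fuz KO 2 Irx5 passed the test at 1.29 (edgeR adjusted p = 0.0101).

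Irx6 had 1.40 and 2.33 CPM in Head Fuz KO, 1.72 and 0.559 CPM in Head Gpr161 KO, 3.02 and 2.18 CPM in Head DKO, and 1.14 and 0.798 CPM in Head WT. Fuz KO and DKO did not overlap with WT, and Gpr161 KO did. The log2 fold change of Head DKO over Head WT was 1.42 ± 0.54 (SE, edgeR adjusted p = 0.957), and with sex as a term it turned to -0.18. For Irx6 that term rests on the 1.72 and 0.559 CPM of Head Gpr161 KO, since both Tail Gpr161 KO libraries had 0 counts. It therefore does not show an effect of sex. Irx4 had 8.46 and 4.28 CPM in Head Fuz KO, 9.19 and 2.75 CPM in Head Gpr161 KO, 3.96 and 4.31 CPM in Head DKO, and 4.71 and 4.39 CPM in Head WT. The high Irx4 library, Head Gpr161 KO 1, was also the one highest for 14 cardiomyocyte markers, whose summed level was 2496 and 531 CPM in Head Gpr161 KO and 11.3 and 12.6 CPM in Head WT. Head Gpr161 KO 2, at 531 CPM of these markers, had the lowest Irx4 in Head (2.75 CPM). Head Fuz KO 1, at 8.46 CPM of Irx4, had 38.1 CPM of the markers. The cardiomyocyte markers were called higher for 11 of 14 in Head Gpr161 KO, and their part in the Irx4 values was not tested.

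The Head values of Irx1, Irx2, Irx3 and Irx5 were highest in Fuz KO 1 and next highest in DKO 1, and these libraries also had the highest summed hypoxia and glycolysis markers. The part of these markers in the Irx values was not tested. Of the 12 markers, 0 were called by edgeR in any mutant of either region, while their median log2 fold change over WT was 2.25 in Head Fuz KO, 1.20 in Head Gpr161 KO and 2.09 in Head DKO. Head Fuz KO 2 had a summed marker level of 3111 CPM, against 2658 and 2603 CPM in Head WT. Its Irx1, Irx3 and Irx5 were above both Head WT libraries, and its Irx2 lay between them. Head Gpr161 KO 1, at 5875 CPM, was below both Head WT libraries for Irx2 (25.9 CPM) and Irx3 (61.0 CPM). It was above both for Irx1 (35.6 CPM) and Irx5 (31.4 CPM). Head DKO 2, at 4101 CPM of the markers, had more of each of these genes than Head Gpr161 KO 1.

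**Figure D3:**
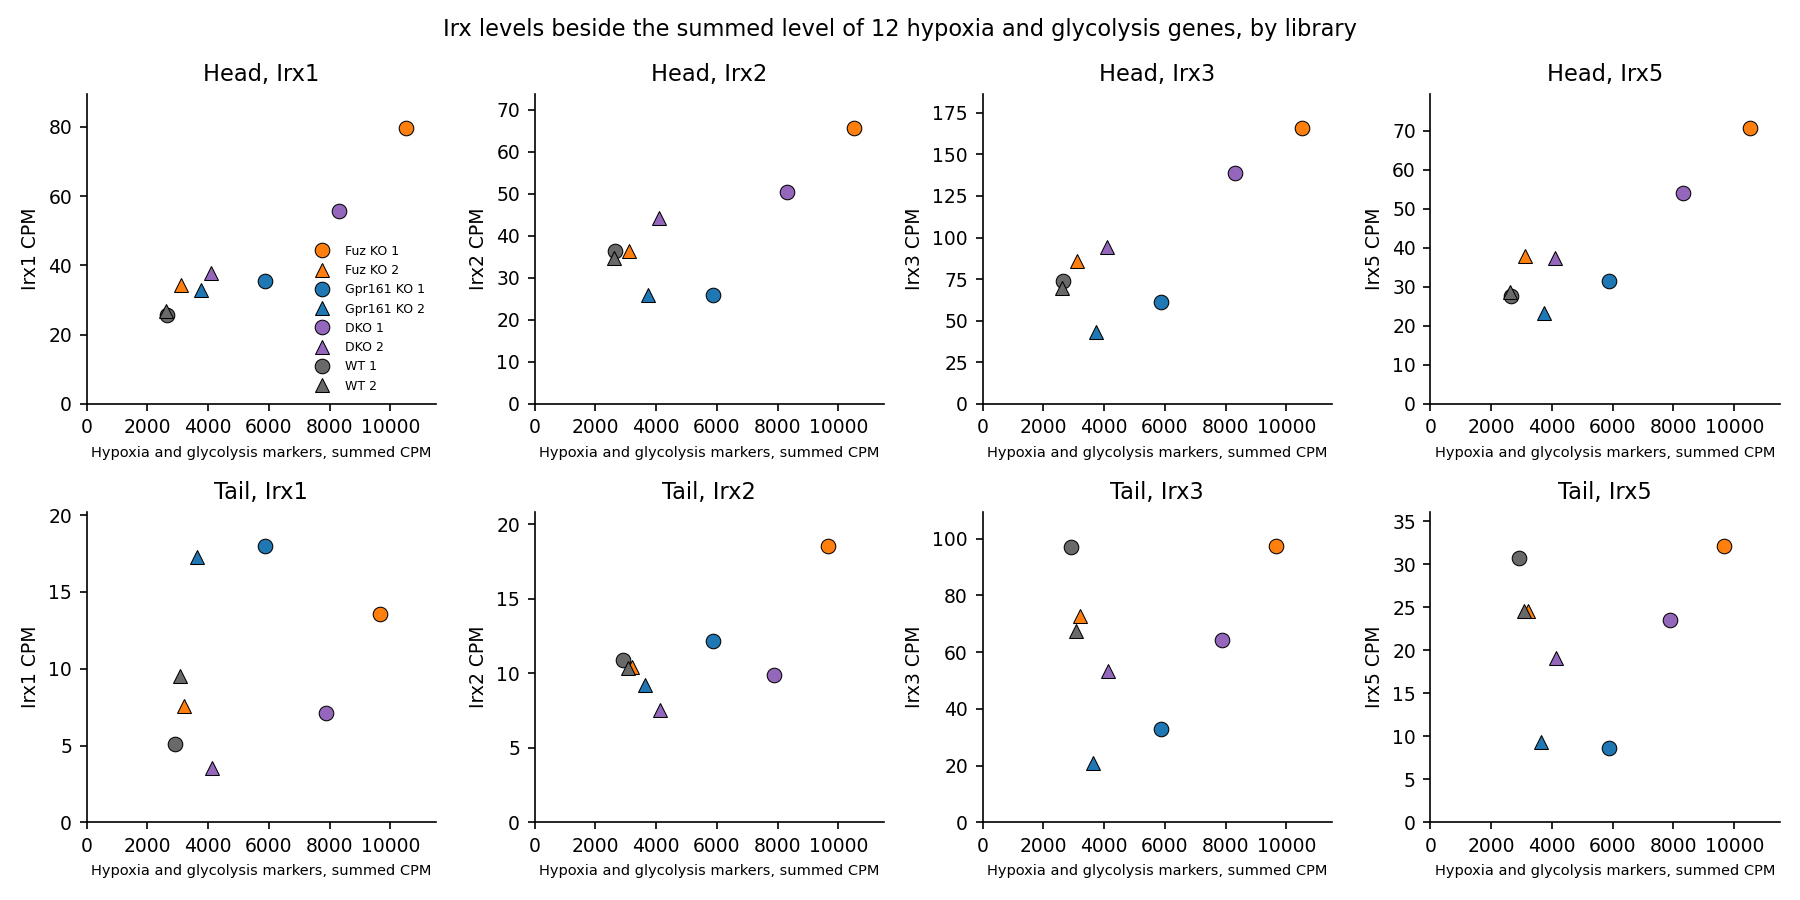
CPM of Irx1, Irx2, Irx3 and Irx5 (vertical axes) beside the summed CPM of 12 hypoxia and glycolysis genes (horizontal axes) in each library, Head above and Tail below. In Head, Fuz KO 1 and DKO 1 are highest on both axes for all 4 genes. Head Gpr161 KO 1, at 5875 summed CPM, is below both Head WT libraries for Irx2 and Irx3. In Tail, Gpr161 KO is lowest for Irx3 and Irx5 at 5881 and 3628 summed CPM.

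Against each other in the Head, Fuz KO and Gpr161 KO differed at the edge of the threshold. EdgeR called 0 members and 5.87% of all genes, while DESeq2 called Irx2, Irx3 and Irx5. An unadjusted p under 0.05 in edgeR was reached by 3 members and by 4696 of the 21284 genes. The log2 fold changes in Fuz KO over Gpr161 KO were 1.28 ± 0.34 for Irx3 (SE; edgeR adjusted p = 0.0510), 0.99 ± 0.27 for Irx5 (0.0520) and 0.98 ± 0.28 for Irx2 (0.0606). Head DKO against Head Gpr161 KO also gave 0 member calls by edgeR, with 4.16% of all genes called, and DESeq2 called Irx2 and Irx3. In that comparison 4 members and 3777 of the 21284 genes had an unadjusted edgeR p under 0.05. There the log2 fold changes were 1.17 ± 0.34 for Irx3 (SE; edgeR adjusted p = 0.0842) and 0.87 ± 0.28 for Irx2 (0.110). Head DKO against Head Fuz KO gave 0 called members by edgeR, which called 0.0282% of all genes, and 0 by DESeq2. At an unadjusted edgeR p under 0.05 there were 0 members and 616 of the 21284 genes.

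Head was then set against Tail within each genotype. Every Head library had more Irx1 and Irx2 than either Tail library of its genotype. Irx3, Irx5 and Irx6 overlapped between the regions in WT, and their Head libraries were all above the Tail libraries in each mutant, except for Irx3 in Fuz KO. The labels give no pairing of Head with Tail. Samples of the same number deviated together in both regions, but weakly in Gpr161 KO and WT (r across genes of 0.196 and 0.133). Between Head Fuz KO and Head DKO, which differ in genotype but both carry the loss of Fuz, r was 0.302. Both groups are male, and in each the replicate 1 library had the higher hypoxia and glycolysis markers. Values with genotype and number as a block are given where they change a call, and they depend on this pairing. The share of all genes called with the block is not given, so the shares below are no background for its calls. For Irx3 in Gpr161 KO, Head over Tail, the SE was 0.14 with the block and 0.34 without it.

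In WT, Irx2 was called higher in Head, with a log2 fold change of 1.74 ± 0.29 (SE; edgeR adjusted p = 0.00398), and it was the 1 member called among 6, where 3.77% of all genes were called and 2.02% higher. Head WT had 36.5 and 34.6 CPM of Irx2 and Tail WT 10.9 and 10.4 CPM, with no overlap. Irx1, at 25.7 and 26.9 CPM in Head WT and 5.07 and 9.51 CPM in Tail WT, had a log2 fold change of 1.85 ± 0.46 (SE) and an edgeR adjusted p of 0.05001, just above the threshold. With the block it was 1.90 ± 0.19 and passed, at an adjusted p of 9.85e-05. For Irx3, Head WT had 74.0 and 69.6 CPM, which lay within the Tail WT values of 97.3 and 67.6 CPM, and Irx5, Irx6 and Irx4 overlapped between the regions too.

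In Fuz KO, Irx1 and Irx2 were called higher in Head than in Tail, at log2 fold changes of 2.43 ± 0.46 (SE; edgeR adjusted p = 0.00888) and 1.82 ± 0.29 (0.00211), where 6.3% of all genes were called and 3.66% higher. The Irx1 call was lost without Head Fuz KO 1 (log2 fold change 1.69, adjusted p = 0.0665), Tail Fuz KO 2 (0.0841) or both Fuz KO 1 libraries (0.0699). With the block, Irx5 (0.89 ± 0.16, adjusted p = 0.00245), Irx6 (1.84 ± 0.49, 0.0264) and Irx3 (0.51 ± 0.14, 0.0345) passed as well.

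In Gpr161 KO, Irx2, Irx5 and Irx6 were called higher in Head, where 6.93% of all genes were called and 4.7% higher. Irx5 had 31.4 and 23.2 CPM in Head Gpr161 KO against 8.67 and 9.32 CPM in Tail Gpr161 KO, a log2 fold change of 1.60 ± 0.28 (SE; edgeR adjusted p = 0.00424). Irx6 in Head Gpr161 KO, pooled over libraries at 1.72 and 0.559 CPM, was 30.3-fold above the floor of Tail Gpr161 KO (edgeR adjusted p = 8.36e-04). Irx2 had a log2 fold change of 1.27 ± 0.29 (SE, edgeR adjusted p = 0.0176). The Irx2 call was lost without Head Gpr161 KO 1 (0.0675), Head Gpr161 KO 2 (0.0887), Tail Gpr161 KO 1 (0.0637) or Tail Gpr161 KO 2 (0.172), and the Irx5 call without Tail Gpr161 KO 1 (0.0575). With the block, Irx3 (0.96 ± 0.14, adjusted p = 0.00126) and Irx1 (0.96 ± 0.18, 0.00379) passed as well.

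In DKO, Irx1, Irx2, Irx5 and Irx6 were called higher in Head, where 7.04% of all genes were called and 4.11% higher. Irx1 had 55.8 and 37.7 CPM in Head DKO and 7.11 and 3.56 CPM in Tail DKO, with a log2 fold change of 3.13 ± 0.48 (SE; edgeR adjusted p = 0.00232). The log2 fold changes of the others were 2.44 ± 0.30 for Irx2 (2.96e-04), 1.10 ± 0.28 for Irx5 (0.0280) and 3.34 ± 0.60 for Irx6 (0.00485). The Irx5 call was lost without Head DKO 1 (0.259), Tail DKO 1 (0.0788) or Tail DKO 2 (0.262), and the Irx6 call without Tail DKO 1 (0.0525), Tail DKO 2 (0.0593) or the Fuz KO 1 and DKO 1 libraries of both regions (0.0773). With the block, Irx3 (0.97 ± 0.14, adjusted p = 9.93e-04) passed as well. Irx4 was not called between the regions in any genotype, with or without the block.

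**Figure D4:**
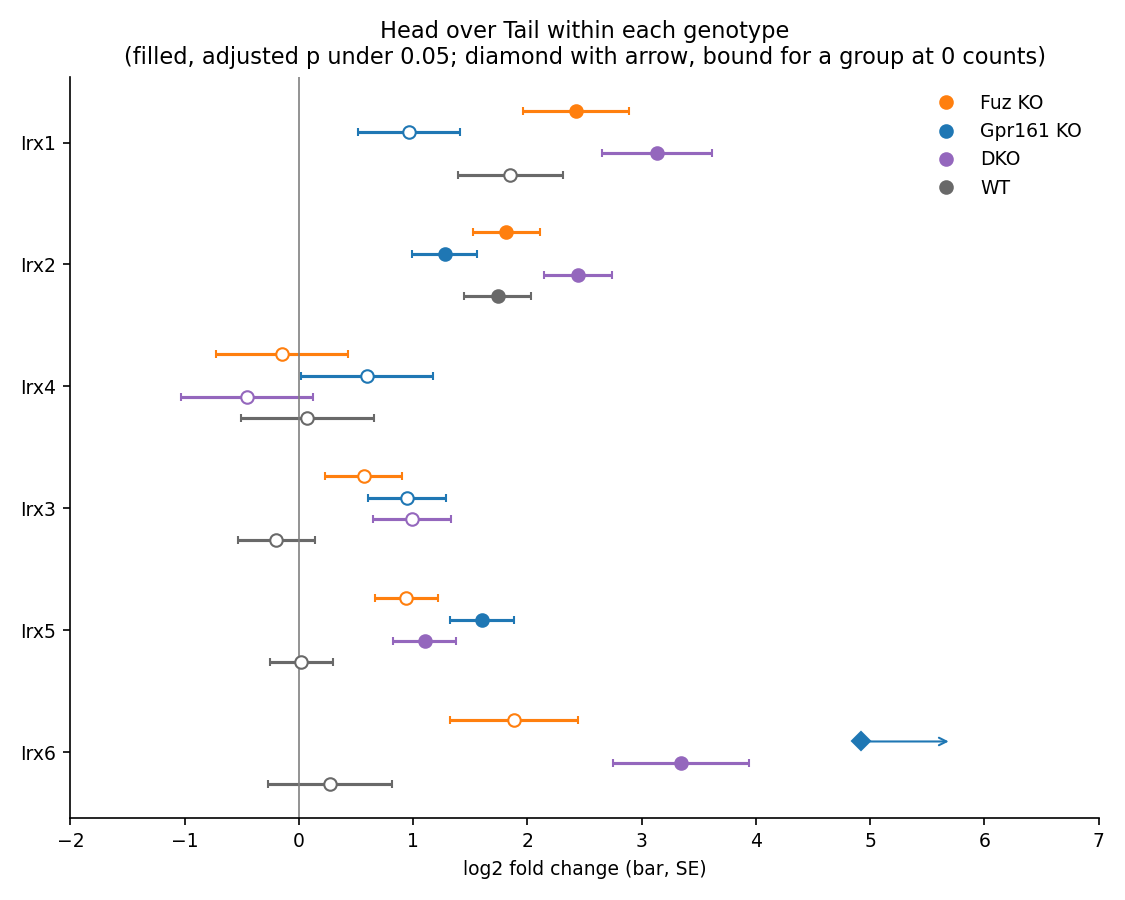
Log2 fold change of Head over Tail (points, with SE bars) for each Irx gene in Fuz KO, Gpr161 KO, DKO and WT; filled points passed an adjusted p of 0.05. Irx1 and Irx2 lie right of 0 in all 4 genotypes, Irx3 and Irx5 within 1 SE of 0 in WT and right of it in the mutants, and Irx6 in Gpr161 KO is a bound with an arrow.

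Whether a mutant's effect differed between the regions was tested as the log2 effect in Tail minus that in Head. For Gpr161 KO, the fit without a block called 0 members (DESeq2 called Irx5 and Irx6), with 0.094% of all genes called. In that fit 3 members and 1119 of the 21284 genes had an unadjusted edgeR p under 0.05. The difference was -1.58 ± 0.39 for Irx5 (SE; edgeR adjusted p = 0.209) and -1.15 ± 0.48 for Irx3 (0.845), and Irx6 had an adjusted p of 0.0502. With genotype and number as a block, Irx5 (-1.56 ± 0.23, adjusted p = 0.00751), Irx6 (0.0121) and Irx3 (-1.14 ± 0.20, 0.0276) passed. For the Fuz KO and DKO effects, 0 members and 0% of all genes were called in each. DESeq2 and the block also called 0 members there. An unadjusted edgeR p under 0.05 was found for 1 member and 452 of the 21284 genes for Fuz KO. For DKO it was found for 3 members and 692 genes.

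Across the 8 groups, the order of the mean levels put Head Fuz KO first for Irx1 (57.0 ± 32.1 CPM, SD, n = 2), Irx2 (51.0 ± 20.8 CPM), Irx3 (126 ± 56.4 CPM) and Irx5 (54.3 ± 23.1 CPM), with Head DKO next in each. Head Fuz KO and Head DKO overlapped for all 4 genes. For Irx6 the order was turned, with Head DKO (2.60 ± 0.593 CPM) above Head Fuz KO (1.87 ± 0.657 CPM), and these overlapped as well. At the low end, Tail Gpr161 KO was last for Irx3 (26.9 ± 8.63 CPM), Irx5 (9.00 ± 0.459 CPM) and Irx6 (0 counts), below the next group without overlap for each. Tail DKO was last for Irx1 (5.34 ± 2.51 CPM) and Irx2 (8.71 ± 1.63 CPM), overlapping with the next group for Irx1 and just below it for Irx2. For Irx4 the group means ran from 3.94 ± 0.0822 CPM in Tail Gpr161 KO to 7.07 ± 0.182 CPM in Tail Fuz KO, and of the 7 neighbouring pairs in its order only Tail DKO and Head WT did not overlap.

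With the mean of each region removed, the members of a cluster resembled each other more within IrxB than within IrxA. After the mean of each region was taken from log2 CPM, Pearson's r over the 16 libraries was 0.957 for Irx3 and Irx5, 0.843 for Irx5 and Irx6, and 0.805 for Irx3 and Irx6. For Irx1 and Irx2 it was 0.602, for Irx2 and Irx4 0.238 and for Irx1 and Irx4 -0.036. Between the clusters, Irx2 and Irx3 were at 0.668, and Irx1 and Irx5 at -0.077, which joined a value of 0.922 over the 8 Head libraries and -0.558 over the 8 Tail libraries. With the region means kept, r was 0.905 for Irx1 and Irx2. It was 0.941 for Irx3 and Irx5, 0.902 for Irx5 and Irx6 and 0.806 for Irx3 and Irx6. Irx1 and Irx4 were then at -0.012 and Irx2 and Irx4 at 0.102. Over the 8 Head libraries, Irx1 and Irx2 were at 0.764 and Irx3 and Irx5 at 0.958. Irx3 and Irx6 were at 0.647 there and Irx5 and Irx6 at 0.614. Over the 8 Tail libraries, Irx1 and Irx2 were at 0.525 and the IrxB pairs at 0.901 to 0.959. All these values are descriptions of the same 16 libraries, which share genotype, depth and the marker differences given above.

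**Figure D5:**
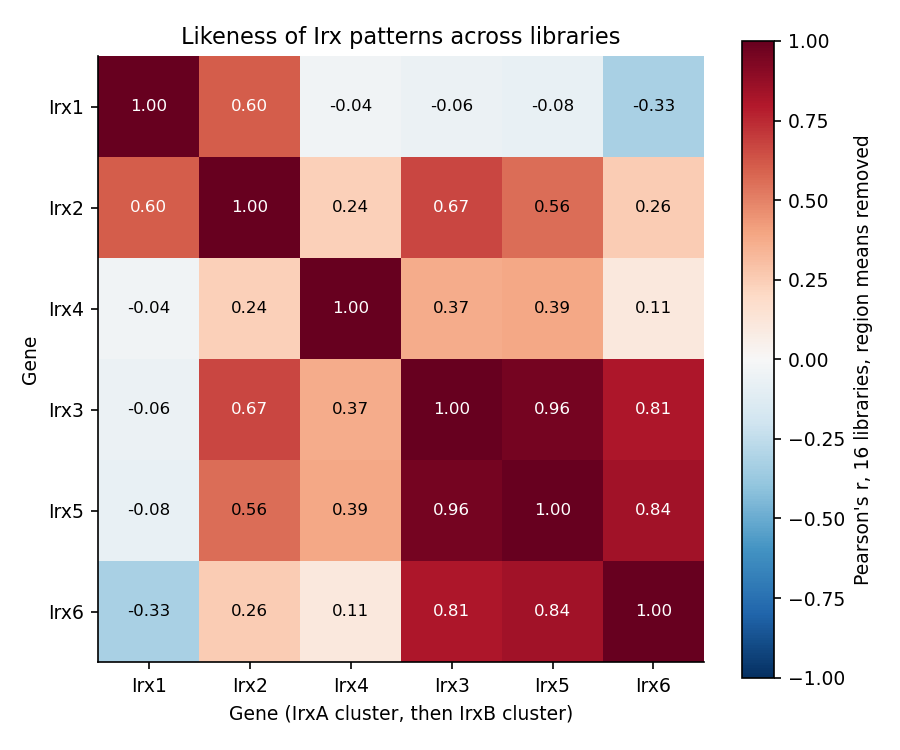
Pearson's r between each pair of Irx genes over 16 libraries on log2 CPM with the mean of each region removed, with the genes of the IrxA cluster first. The 3 pairs within IrxB are between 0.805 and 0.957, and the pairs within IrxA between -0.036 and 0.602.

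By the same measure over 13210 genes with a mean of at least 1 CPM, the named genes outside the family most like each member were as follows. Irx3 was most like Spry2 (0.933), an inhibitor of receptor tyrosine kinase signalling, Car11 (0.916) and Chst1 (0.895). Irx5 shared Car11 (0.923) and Chst1 (0.917) with it and added Ddn (0.904). Irx6 was most like Plch1 (0.923), Gatm (0.838), an enzyme of creatine synthesis, and Pax7 (0.835), a dorsal neural tube factor. Irx1 was most like Amt (0.915), Sox13 (0.913) and Fgf3 (0.900), a hindbrain growth factor. Irx2 was most like Alpl (0.925), Gbx2 (0.924), a hindbrain organiser factor, and Usp6nl (0.919). Irx4 was most like Dennd2d (0.831), Ap1m2 (0.831) and Epcam (0.776), the last an epithelial adhesion protein.

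The RNAs that lie beside the IrxB genes were followed on their own. Crnde, a long non-coding RNA next to Irx5, had 5.76 and 3.02 CPM in Tail Gpr161 KO against 6.92 and 8.67 CPM in Tail WT, with no overlap. Irx3os, on the opposite strand to Irx3, had 1.37 and 0.955 CPM in Tail Gpr161 KO against 2.73 and 2.40 CPM in Tail WT, also with no overlap, and neither RNA was called. Irx3os shares 124 of the 2762 exonic bases of Irx3 (4.49%) in GENCODE M21, and since the strand setting of the counts is not given, reads of that stretch cannot be told apart. Likewise Gm45505, an antisense gene, covers 152 of the 3370 exonic bases of Irx6 (4.51%).

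Irx3os was called in 1 comparison, higher in Head Fuz KO (8.28 and 4.42 CPM) than in Head Gpr161 KO (1.82 and 1.63 CPM), with a log2 fold change of 1.88 and an edgeR adjusted p of 0.0205. Of the genes annotated inside the clusters and the 3 on each side, 5 at IrxA and 5 at IrxB could be tested. Besides Irx3os, 1 of them was called in any comparison: Mmp2, a matrix protease gene beyond Irx6, which was lower in Head WT than in Tail WT (log2 fold change -0.65, edgeR adjusted p = 0.0293).

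Genes that share the territories of the Irx members were counted from lists in the Tail of Gpr161 KO against WT. Of all genes, 0.305% were called there in either direction and 0.226% were lower. Of 12 neural tube progenitor factors, 4 fell and 1 rose, with a list median log2 fold change of 0.00. Pax3, a dorsal factor, had 7.87 and 8.24 CPM in Tail Gpr161 KO against 55.5 and 54.7 CPM in Tail WT (log2 fold change -2.77, edgeR adjusted p = 4.32e-06). Pax7, also dorsal, had 0.0948 and 0.0516 CPM against 8.02 and 11.4 CPM in Tail WT, and Foxa2, which marks the floor plate, had 33.6 and 31.6 CPM against 2.97 and 5.67 CPM in Tail WT. Of 7 Hedgehog response genes, 5 rose and 0 fell, among them Gli1 (1.54, edgeR adjusted p = 0.00325) and Ptch1 (1.89, 0.0129). Of 8 midbrain and hindbrain organiser genes, 12 TALE homeobox relatives (Meis, Pbx, Pknox and Tgif genes and Mkx), 11 limb bud genes and 7 cardiac transcription factors, 0 were called there, with list medians of -1.65, -0.15, 0.29 and 0.46.

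In the Head of Gpr161 KO against WT, where 0 of the 6 Irx members were called, 4 of the 12 neural tube progenitor factors fell and 1 rose, and 6 of the 7 Hedgehog response genes rose. The share of all genes called in that comparison was 2.02%, and its split by direction is not given. Pax3 had a log2 fold change of -2.62 there and Pax6, a factor of the intermediate neural tube and the eye, -4.30. In Tail DKO and Tail Fuz KO against Tail WT, 0 of the 12 neural tube factors and 0 of the 7 Hedgehog response genes were called by edgeR. Among all genes, 0.0423% were called in Tail DKO and 0.0094% in Tail Fuz KO. In Tail DKO against Tail Gpr161 KO, 5 of the 12 neural tube factors were higher and 1 lower, and 5 of the 7 Hedgehog response genes were lower. There, 0.522% of all genes were called, again with no split by direction.

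Between the regions of WT, where Irx2 was called, 3 of the 8 midbrain and hindbrain organiser genes were higher in Head (Otx2, En2 and Pax5) and 6 of the 11 limb bud genes lower in Head, among them Tbx4 (log2 fold change -5.57), a hindlimb factor. Of all genes, 3.77% were called between these regions and 2.02% were higher in Head. Of the 12 TALE relatives, Meis1 (-1.50) and Meis2 (-0.83), cofactors of Hox proteins, were lower in Head WT than in Tail WT.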

How the data were processed

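RNA of 16 embryo parts was made into poly-A libraries, per the labels. The authors deposited 1 table of raw, unnormalized counts by Ensembl gene for each library. The submitters' processing notes list STAR 2.7.1a, featureCounts 1.6.0 and HTSeq among the tools, with no roles, and the build GRCm39. Which tool made the counts, and with which strand setting and annotation, is not given in the sources used here. Names, exons and transcripts came from GENCODE M21, which matched 54809 of 54838 identifiers and is of another build, so no coordinates are given. Neighbouring genes came from RefSeq.

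CPM was computed on TMM-adjusted totals. Counts were filtered with filterByExpr and tested in 1 fit over 16 libraries and 8 groups with edgeR 4.0.16 (robust quasi-likelihood F-test, R 4.3.3), Benjamini-Hochberg adjusted over all 21284 genes in each of 21 comparisons and called at an adjusted p under 0.05. This fit had 8 residual degrees of freedom, with a common biological coefficient of variation of 0.257, and the fits with a block had fewer. SEs come from the F statistic. Likeness used log2 CPM with a prior count of 2. DESeq2 1.42.0 and the other alternatives are given in the closing section. The share of all genes called by DESeq2 or with a block is not given. The shares from the edgeR fit without a block are no background for those member calls. The pipeline was tested on simulated data. Intervals and floors cover counting error only, and the Irx6 bounds allow for none in the group set against the floor.

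Head and Tail libraries of a genotype with the same number deviated from their group means together (r across genes of 0.437 for Fuz KO, 0.196 for Gpr161 KO, 0.282 for DKO and 0.133 for WT). The pairing is read from the data, not from the labels. The members and lists were chosen with earlier results of these data known. All members were named in every comparison, and from a list at most 3 called genes.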

Additional observations from a re-analysis of the deposited data

Results flagged for a closer look

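The Gpr161 KO effect differed between the regions for Irx3, Irx5 and Irx6 by a test of the difference itself, Tail minus Head, with genotype and number as a block. The edgeR adjusted p was 0.0276 for Irx3, 0.00751 for Irx5 and 0.0121 for Irx6, each with the lower value in Tail. Without the block, 0 of the 3 passed. The share of all genes called with the block is not given. The block rests on a pairing read from the data, where r across genes was 0.196 for Gpr161 KO and 0.133 for WT. Groups of 2 are too small for a check of outlying libraries.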

How the results depend on the processing

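Results were recomputed with DESeq2, with RLE scaling, with all genes kept or only those of at least 5 CPM, with the regions fitted apart, with sex as a term, with blocks for the replicate number or for genotype and number (region comparisons), without haemoglobin, mitochondrial and cardiomyocyte genes, and without some libraries. Of 1365 refits of 51 member fold changes, 1190 kept direction and side of the threshold, 39 lost a call, 135 gained one and 1 turned, Irx6 in Head DKO against Head WT with sex as a term (-0.18). Of 48 group levels, 5 moved by more than 1 SD. Except where stated, the cause was not tested.

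The main number of members called, out of 6, was 2 in Tail Gpr161 KO against Tail WT and in Tail Fuz KO against Tail Gpr161 KO, and from Head over Tail 2 in Fuz KO, 3 for Gpr161 KO, 4 for DKO and 1 for WT; it was 0 in the other comparisons. The numbers below are those that differed by more than 1.5 times, unless said otherwise. They describe the members only, since the number of all genes called is given only for the fit without a filter. Under the other settings, a change in the members called cannot be told from a change over all genes. Without a filter, 42241 genes were tested, and all genes called are given in brackets. The number was 3 (780) in Head Fuz KO, 2 (432) in Head DKO and 4 (802) in Tail Gpr161 KO against WT. With the filter edgeR called 10 genes in Head Fuz KO against WT and 65 in Tail Gpr161 KO against WT, so calls rose over all genes too. Against Gpr161 KO it was 3 (1780) in Head DKO, 4 (2436) in Head Fuz KO and 4 (794) in Tail DKO. It was 1 (151) in Tail DKO against Fuz KO and 4 (549) for the Tail departure. For Tail minus Head it was 3 (439) for the Gpr161 KO effect and 2 (144) for the DKO effect. For Head over Tail it was 5 (2174) for Fuz KO, 5 (2365) for Gpr161 KO and 2 (1688) for WT. With at least 5 CPM, which leaves Irx6 out, it was 1 in Tail Gpr161 KO against WT, 3 in Head Fuz KO against Gpr161 KO, 1 in Tail Fuz KO against Gpr161 KO and 2 for Head over Tail in WT. With each region fitted alone, it was 1 in Tail Gpr161 KO against WT and 1 in Tail Fuz KO against Gpr161 KO. With DESeq2, it was 2 in Head DKO against Gpr161 KO, 3 in Head Fuz KO against Gpr161 KO, 4 in Tail DKO against Gpr161 KO, 2 for the Tail departure, 2 for the Gpr161 KO effect in Tail minus Head, and for Head over Tail 4 in Fuz KO and 2 in WT; smaller moves gave 3 in Tail Gpr161 KO against WT, 3 in Tail Fuz KO against Gpr161 KO and, for Head over Tail, 4 for Gpr161 KO and 5 for DKO. With sex as a term, it was 1 in Tail Gpr161 KO against WT, 1 in Tail Fuz KO against Gpr161 KO and 1 for the Gpr161 KO effect in Tail minus Head. With RLE scaling, and likewise without the haemoglobin, mitochondrial and cardiomyocyte genes, it was 2 in Head Fuz KO against Gpr161 KO and 2 for Head over Tail in WT.

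With the replicate number as a block across genotypes, the number was 3 in Head DKO against Gpr161 KO, 3 in Head Fuz KO against Gpr161 KO, 3 in Tail DKO against Gpr161 KO, 2 for the Gpr161 KO effect in Tail minus Head and 2 for Head over Tail in WT. Smaller moves gave 3 in Tail Gpr161 KO against WT, where Irx3 passed (4.12e-04), 3 in Tail Fuz KO against Gpr161 KO, where Irx3 passed too (2.41e-04), and, for Head over Tail, 3 in Fuz KO, 4 for Gpr161 KO and 5 for DKO. The correlation across genes of same-numbered libraries of different genotypes ran from -0.0787 to 0.302, not above 0.1 in every pair: it was 0.205 to 0.302 for Fuz KO with DKO, as high as within some genotypes, and -0.0787 to 0.0525 for the mutants with WT. With genotype and number as a block, it was 3 for the Gpr161 KO effect in Tail minus Head and, for Head over Tail, 5 for Fuz KO, 5 for Gpr161 KO and 2 for WT; it changed no other number by over 1.5 times.

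Without both Fuz KO 1 libraries, it was 2 in Head DKO against Gpr161 KO, 3 in Tail DKO against Gpr161 KO, 2 for the Gpr161 KO effect in Tail minus Head and, for Head over Tail, 1 in Fuz KO and 2 in WT. Without both Fuz KO 1 and both DKO 1 libraries, it was 1 in Head Gpr161 KO against WT, 1 in Head DKO against Gpr161 KO, 3 in Tail DKO against Gpr161 KO, 1 in Tail Fuz KO against Gpr161 KO, 2 for the Gpr161 KO effect in Tail minus Head and 2 for Head over Tail in WT. Without both Gpr161 KO 1 libraries, it was 0 in Tail Gpr161 KO against WT, 0 in Tail Fuz KO against Gpr161 KO and 1 for Head over Tail in Gpr161 KO.

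With each library left out in turn, the number ran from 0 to 2 in Tail Gpr161 KO against WT, 0 to 1 in Head Fuz KO against WT, 0 to 2 in Head DKO against Gpr161 KO, 0 to 3 in Head Fuz KO against Gpr161 KO, 0 to 2 in Tail DKO against Gpr161 KO, 0 to 3 in Tail Fuz KO against Gpr161 KO, 0 to 1 for the Gpr161 KO effect in Tail minus Head, and for Head over Tail 1 to 3 in Fuz KO and also in Gpr161 KO, 2 to 4 in DKO and 1 to 2 in WT; it stayed at 0 in the others. The lone library of a group that lost 1 is taken to vary as the other groups do. Irx6, at 684 counts in all 16 libraries, is the member for which depth limits the precision most.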
